A study of Homo sapiens with 24 samples.

Results

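PKIB, an endogenous inhibitor of protein kinase A, was followed here together with the other genes of the kinase in HepG2 cells that carry 1 of 3 forms of the glucocorticoid receptor. The genes were taken by name: the inhibitors PKIA, PKIB and PKIG, the catalytic subunits PRKACA and PRKACB, and the regulatory subunits PRKAR1A, PRKAR2A and PRKAR2B. They make up 8 of the 60683 genes in the count table. PKIB was chosen because it is lower in both receptor variants than in wild type, so that difference is described below without a test. The other 7 genes were chosen by name alone.

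HepG2 is an established human liver tumour line. All 24 cultures were GR-/-, their own receptor gene having been disrupted, and expressed from a doxycycline-inducible lentivirus a Ty1-tagged receptor that was WT, K154R or K154Q. Each form was studied after 6 h with ethanol as vehicle or with the synthetic glucocorticoid dexamethasone at 1 µM, in 6 groups of 4 biological replicates. As background, an arginine in place of a lysine cannot be acetylated, and a glutamine is often used to imitate an acetylated lysine. Doxycycline was given at 0.3 to 1 µg/mL for 24 h, at doses set to equalise receptor protein, and then withdrawn for 24 h in medium with hormone-depleted serum. The labels also carry the tag sg18, which they do not explain, and do not say whether the knockout cells are 1 clone. Where the cultures of 1 group share transduced cells, p-values measure only the spread between these cultures.

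Protein kinase A is kept inactive as a tetramer of regulatory and catalytic subunits. Adenylyl cyclases make cyclic AMP, which binds the regulatory subunits and frees the catalytic ones. Free catalytic subunits phosphorylate enzymes and the transcription factor CREB, and in the liver this pathway carries the fasting signal of glucagon. Inhibitors of the PKI family bind the free catalytic subunit in the manner of a substrate and block it, and they can carry it out of the nucleus. Phosphodiesterases end the signal by degrading cyclic AMP, and A-kinase anchoring proteins hold the kinase in place.

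Libraries held 23863672 to 42072021 counts. All 10 hepatocyte markers fixed for the check, ALB and AFP among them, were above 1 in every library in CPM, the count relative to the library total after TMM scaling for library composition. The 8 markers of other cell types summed to 1.73 to 3.62 CPM, and PTPRC, the leukocyte marker, had a count of 0 in all 24 libraries. PECAM1, a marker of endothelium, and COL1A1, of fibroblasts, were counted in every library, at 0.763 to 2.12 and 0.176 to 1.44 CPM. Transcripts counted for the receptor gene NR3C1, from the transgene or the disrupted locus, averaged 83.4 to 93.2 CPM over the 6 groups, with overlapping ranges. Mitochondrial protein-coding genes took 7.04% to 8.33% of counts in the group means. Bulk RNA was measured, so fewer cells with a transcript and less of it per cell cannot be told apart.

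PKIB lies on chromosome 6 at positions 122471917 to 122726373 of GRCh38, plus strand, with 12 annotated transcripts in GENCODE 29. SERINC1, which encodes a multipass membrane protein, starts on the other strand with 94 bases between the genes. On the same build PKIG spans positions 44531785 to 44624247 of chromosome 20 (plus strand) and overlaps ADA on the other strand. PRKACA lies on chromosome 19 (14091688 to 14118084, minus), PRKACB on chromosome 1 (84078062 to 84238498, plus), PRKAR1A on chromosome 17 (68511780 to 68551319, plus), PRKAR2A on chromosome 3 (48744597 to 48847846, minus) and PRKAR2B on chromosome 7 (107044649 to 107161811, plus). Promoter sequence from RefSeq (GRCh38.p14) was found for 7 of the 8 genes. The stretches below hold the letters of a cyclic AMP response element, the DNA word that CREB binds, before annotated starts, and are shown because PKIB and its enzyme belong to that pathway. Capitals mark the full element TGACGTCA or its core TGACG, in either orientation. For PKIB the printed stretch is the part of the 250 bases before a start that lies outside annotated exons, and for the others it is the 30 bases around the match.
PKIB first start, chr6:122471823-122471916, plus strand: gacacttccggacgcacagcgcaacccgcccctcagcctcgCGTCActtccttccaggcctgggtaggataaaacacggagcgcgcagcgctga
PKIB second start, chr6:122610155-122610231, plus strand: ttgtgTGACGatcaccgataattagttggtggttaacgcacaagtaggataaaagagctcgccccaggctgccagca
PRKACA, chr19:14117794-14117823, minus strand: gcggcgctgagcCGTCAgtcagggcggcct
PRKACB, chr1:84077937-84077966, plus strand: cccgggcctgcgCGTCActtccggcgcgcg
PRKAR1A, chr17:68512370-68512399, plus strand: gcgaggcgcatTGACGTCAgtagccgaacg

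The core lay 57 and 175 bases before the first PKIB start, the latter inside the first exon of SERINC1 and not shown, and 245 bases before the second. It lay 49 bases before the PRKACA start and 130 bases before the PRKACB start. PRKAR1A held the full element 49 bases before the third of its listed starts, and a core 250 bases before the fourth. Over all 35116 promoter windows, 21.2% held the core within 250 bases before the start and 1.65% held the full element, both strands being searched. The full glucocorticoid response element, searched as AGAACA, any 3 bases and TGTTCT, was in none of the windows of the 7 genes and in 0.00285% of all windows. Its first part AGAACA, present in 12.4% of windows, was found before the third PKIB start and in windows of PRKACB. These matches describe letters only, and no binding was measured here.

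PKIB was lower in cells with either variant than in WT cells at both treatments. In WT cells under vehicle its level was 1.12, 1.31, 2.12 and 2.73 CPM in replicates 1 to 4. Under dexamethasone the WT libraries held 1.52, 1.47, 2.53 and 1.76 CPM. All 8 WT libraries were above 1 CPM, from 34 to 97 counts each.

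In K154R cells under vehicle PKIB stood at 0.33, 0.24, 0.96 and 1.30 CPM, and under dexamethasone at 0.36, 0.20, 0.94 and 1.07 CPM. K154Q cells held 0.48, 0.27, 0.87 and 0.62 CPM under vehicle and 0.25, 0.21, 0.45 and 0.43 CPM under dexamethasone. The 16 libraries of the variants held 6 to 34 counts each, so counting error is a larger part of the spread there than in WT.

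The order of the group means was WT vehicle (1.82 ± 0.746 CPM, SD, n = 4), WT dexamethasone (1.82 ± 0.489), K154R vehicle (0.706 ± 0.507), K154R dexamethasone (0.641 ± 0.426), K154Q vehicle (0.560 ± 0.254) and K154Q dexamethasone (0.335 ± 0.123). Neighbours in this order overlapped except at the step from WT dexamethasone to K154R vehicle. Against the WT group of the same treatment, the ranges of K154R dexamethasone, K154Q vehicle and K154Q dexamethasone lay wholly below. The range of K154R vehicle did not, because its replicate 4 at 1.30 CPM was above WT vehicle replicate 1 at 1.12 CPM.

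**Figure D1:**
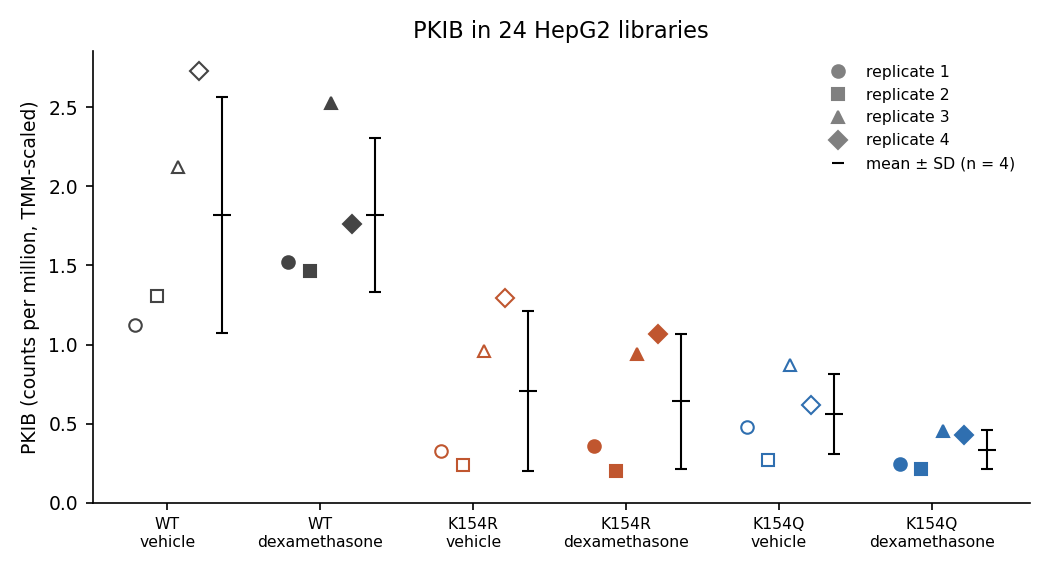
PKIB in CPM (vertical axis, scaled by TMM) in each of the 24 libraries, by receptor form and treatment. Symbols give the replicate number, open symbols vehicle, filled symbols dexamethasone, and black bars the mean and SD of 4 libraries; every WT library is at 1.12 CPM or above, and of the 16 variant libraries 1 is above that, K154R vehicle replicate 4 at 1.30 CPM.

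Fitted log2 differences of PKIB from WT, given as a description since they are the ones PKIB was chosen on, were -1.45 (SE 0.45) for K154R under vehicle and -1.48 (SE 0.45) under dexamethasone. For K154Q they were -1.74 (SE 0.46) and -2.44 (SE 0.49). In folds, PKIB was 2.73-fold and 2.79-fold lower in K154R and 3.33-fold and 5.42-fold lower in K154Q. Matched by replicate number, the variant was the lower one in 4 of 4 matches in each of the 4 comparisons. Of these comparisons, only those under vehicle met the criterion for pairing given below, with all same-number pairs correlated above 0.1. Under dexamethasone 3 of 4 pairs did so for each variant. Among the 16196 genes with enough counts to be fitted, PKIB had the 9th and 7th most negative difference for K154R and the 6th for K154Q at both treatments.

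Within every group, replicates 3 and 4 held more PKIB than replicates 1 and 2. Taken over both treatments, replicates 1 and 2 averaged 1.35 CPM in WT, 0.282 CPM in K154R and 0.302 CPM in K154Q. Replicates 3 and 4 averaged 2.29, 1.07 and 0.594 CPM. K154R was thus 4.80-fold below WT in replicates 1 and 2 and 2.15-fold below it in replicates 3 and 4, while K154Q was 4.49-fold and 3.85-fold below. The labels describe 2 independent experiments with 2 transductions each but do not say which numbers belong to which.

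PKIB did not respond detectably to dexamethasone. Responses were tested with edgeR's quasi-likelihood test, and p-values were adjusted by Benjamini-Hochberg over all 16196 genes with a threshold of 0.05. Its log2 response was -0.02 in WT (SE 0.40, 95% interval -0.85 to 0.82, edgeR adjusted p = 1.0) and -0.05 in K154R (SE 0.50, -1.08 to 0.98, edgeR adjusted p = 1.0). In K154Q it was -0.72 (SE 0.55, -1.86 to 0.43, edgeR adjusted p = 1.0), with the dexamethasone library the lower one in 4 of 4 same-number pairs but the group ranges overlapping. The intervals come from the unblocked fit and allow changes of about 1 log2 unit either way in WT and K154R. With the replicate number as a block, for which the K154R and K154Q responses qualify, they were -0.07 and -0.73 (edgeR adjusted p = 0.983 and 0.78). Same-number differences in K154R ran from -0.28 to 0.11. The response in K154Q minus that in WT was -0.70 (SE 0.69, -2.12 to 0.71, edgeR adjusted p = 1.0), and for K154R the same difference was -0.04 (SE 0.64, -1.37 to 1.29, edgeR adjusted p = 1.0).

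The variants themselves were not shown to differ in PKIB. K154Q minus K154R was -0.29 on the log2 scale under vehicle (SE 0.51, edgeR adjusted p = 1.0). Under dexamethasone it was -0.96 (SE 0.54, 95% interval -2.08 to 0.16, unadjusted p = 0.0902, edgeR adjusted p = 1.0).

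PKIG, the inhibitor that is expressed in most tissues, was the abundant member of its family in these cells. On the RPKM scale, which is CPM divided by gene length in kilobases, PKIG ranged from 11.5 to 19.6 over the 24 libraries, against 0.0585 to 0.796 for PKIB. Its group means were 36.9 ± 8.02 CPM in WT vehicle, 33.6 ± 4.73 in WT dexamethasone, 37.3 ± 7.11 and 34.7 ± 4.92 in K154R, and 37.0 ± 6.24 and 34.9 ± 4.99 in K154Q (SD, n = 4). All 6 ranges overlapped. The fitted difference from WT was within 0.06 log2 units for both variants at both treatments, with the 95% intervals reaching from -0.32 to 0.38.

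PKIA, the inhibitor best known from muscle and brain, was close to absent. It was counted 8 times in all, with a count of 0 in 18 of the 24 libraries. The 8 WT libraries held 0 counts, and the 8 counts of the variants were spread as 3, 1, 3 and 1 over K154R vehicle, K154R dexamethasone, K154Q vehicle and K154Q dexamethasone. At this depth no difference between groups can be read from PKIA.

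PRKACA, the main catalytic subunit, stood at 47.4 to 68.1 CPM over all libraries, and PRKACB, the second catalytic subunit, at 5.38 to 9.54 CPM. Group means of PRKACA were 59.2 ± 6.73, 54.0 ± 5.75, 56.6 ± 4.80, 55.6 ± 3.64, 57.3 ± 7.0 and 58.6 ± 3.22 CPM in WT vehicle, WT dexamethasone, K154R vehicle, K154R dexamethasone, K154Q vehicle and K154Q dexamethasone. PRKACB averaged 7.15 ± 0.657, 7.07 ± 1.79, 7.36 ± 0.720, 6.74 ± 0.972, 7.06 ± 1.32 and 6.88 ± 1.09 CPM in the same order. No comparison of 2 groups separated the ranges of either gene.

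PRKAR1A, the regulatory subunit of the type I kinase, had the highest level per length of the 8 genes, at 32.3 to 47.7 RPKM. Its group means lay between 244 and 268.3 CPM. PRKAR2A, the widely expressed type II regulatory subunit, ranged from 11.9 to 15.5 RPKM and from 79.6 to 103.3 CPM. PRKAR2B, the type II subunit known from fat and brain, had 0 to 7 counts a library and 53 in all.

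PRKAR2A also varied with the replicate number, in the opposite sense to PKIB. Replicates 1 and 2 were above replicates 3 and 4 in all 6 groups. In WT vehicle, for example, PRKAR2A stood at 90.8, 97.5, 87.2 and 84.1 CPM in replicates 1 to 4, and in K154Q dexamethasone at 95.6, 97.5, 84.0 and 84.4 CPM. Such a split appeared in 1 of 6 groups for PKIG and for PRKACB and in 0 of 6 for PRKACA and PRKAR1A.

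**Figure D2:**
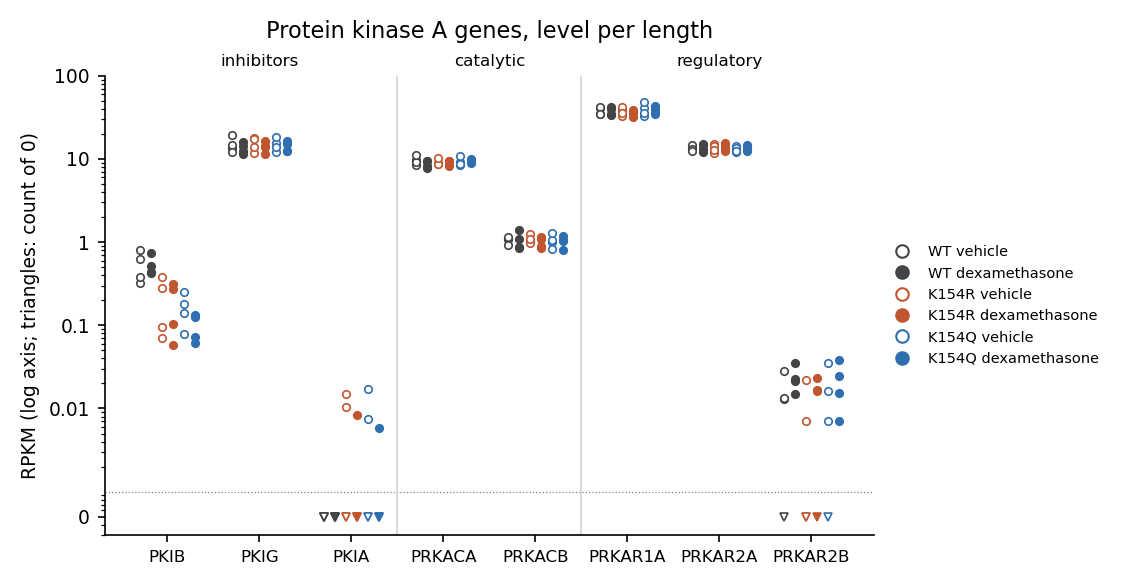
Level per length (RPKM, log axis) of the 8 genes in each of 24 libraries, 1 point per library, in 6 columns per gene for the groups; triangles below the dotted line are libraries with a count of 0 and overlie each other. PKIB is lower in the variants than in WT, while PKIG, PRKACA, PRKACB, PRKAR1A and PRKAR2A lie level over the groups.

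Tests were made for the 6 genes with enough counts, over 11 contrasts, leaving out PKIB where it was chosen. Of 62 such tests with edgeR 0 passed an adjusted p of 0.05, 0 had an unadjusted p under 0.05, and DESeq2 called 0. The share of all 16196 genes called was 0.161% for the dexamethasone response in WT, 0.309% in K154R and 0.13% in K154Q. For the 4 comparisons of a variant with WT it was 0%, while the unadjusted p was under 0.05 for 221 and 253 genes in K154R, under vehicle and dexamethasone, and for 165 and 243 in K154Q. Shares called were likewise 0% for both differences of responses and for K154Q against K154R at both treatments, and there 115 to 486 genes had an unadjusted p under 0.05. By DESeq2, 0 genes were called in 7 of these 8 contrasts and 1 in K154Q against WT under dexamethasone. Against these shares a count of 0 among 6 genes is near the background. With the replicate number as a block, 0.0247% of genes were called for K154R against WT under vehicle and 0.0247% for K154Q, and 0 of the 5 kinase genes tested there were among them. PKIB stayed in the fits behind these counts of all genes. Since it was chosen on its differences from WT, a call of PKIB there is no test and is left out.

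Across the 11 contrasts the fitted log2 difference ranged from -0.14 to 0.06 for PKIG, from -0.13 to 0.17 for PRKACA, from -0.13 to 0.05 for PRKACB, from -0.05 to 0.11 for PRKAR1A and from -0.05 to 0.07 for PRKAR2A. The widest 95% bounds among these 5 genes were -0.58 and 0.51, both in differences of responses. For PRKAR2A the bounds stayed within -0.24 and 0.31. Median differences of the tested genes stayed close to those of all genes, for example -0.02 against -0.01 in the WT response and -0.05 against -0.01 in the K154R response.

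**Figure D3:**
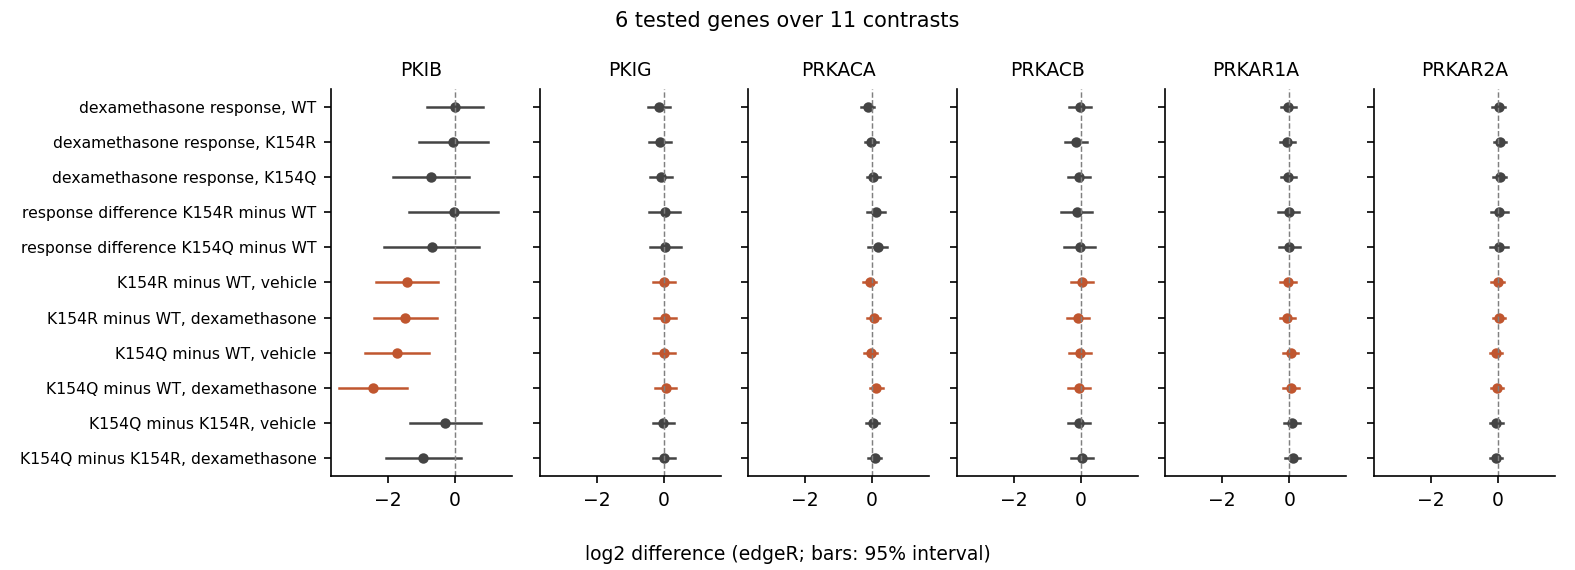
Fitted log2 differences (horizontal axis, points) with 95% intervals (bars) for the 6 tested genes over 11 contrasts; orange marks comparisons of a variant with WT, which for PKIB are a description of how it was chosen. PKIB reaches -2.44, whereas the other 5 genes stay between -0.14 and 0.17.

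Summed per length, the ratios between the kinase transcripts had overlapping ranges in all groups. Regulatory subunits exceeded catalytic subunits 5.02-fold on average (range 3.88 to 6.34 over 24 libraries), and PRKAR1A made up 73.4% of the regulatory sum, which holds PRKAR1A, PRKAR2A and PRKAR2B. With PRKAR1B, a second type I regulatory subunit at 13.1 RPKM on average, added after the values were seen, the ratio was 6.31 (range 5.04 to 7.67) and the share of PRKAR1A 58.4%. PRKACA made up 89.8% of the catalytic sum. Inhibitor transcripts exceeded catalytic transcripts 1.44-fold per length (range 1.10 to 1.86), and the group means of that ratio lay between 1.35 and 1.49. Its direction rests on the deposited lengths, 2466 bases for PKIG, 6162 for PRKACA and 6730 for PRKACB. In CPM, PKIG at 35.7 was below PRKACA at 56.9 on average. Whether the expressed transcripts have these lengths was not tested.

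PKIB was a small share of the inhibitor transcripts even in WT. It made up 3.42% ± 1.19 of their RPKM sum in WT vehicle and 3.86% ± 1.46 in WT dexamethasone (SD, n = 4). In K154R the share was 1.33% ± 0.861 and 1.26% ± 0.725, and in K154Q 1.10% ± 0.527 and 0.694% ± 0.275. The summed inhibitor level was 15.5 ± 3.39 and 14.1 ± 1.82 RPKM in WT, 15.3 ± 2.93 and 14.2 ± 2.09 in K154R, and 15.2 ± 2.54 and 14.2 ± 2.03 in K154Q, vehicle first. The ranges of that sum overlapped between all groups.

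**Figure D4:**
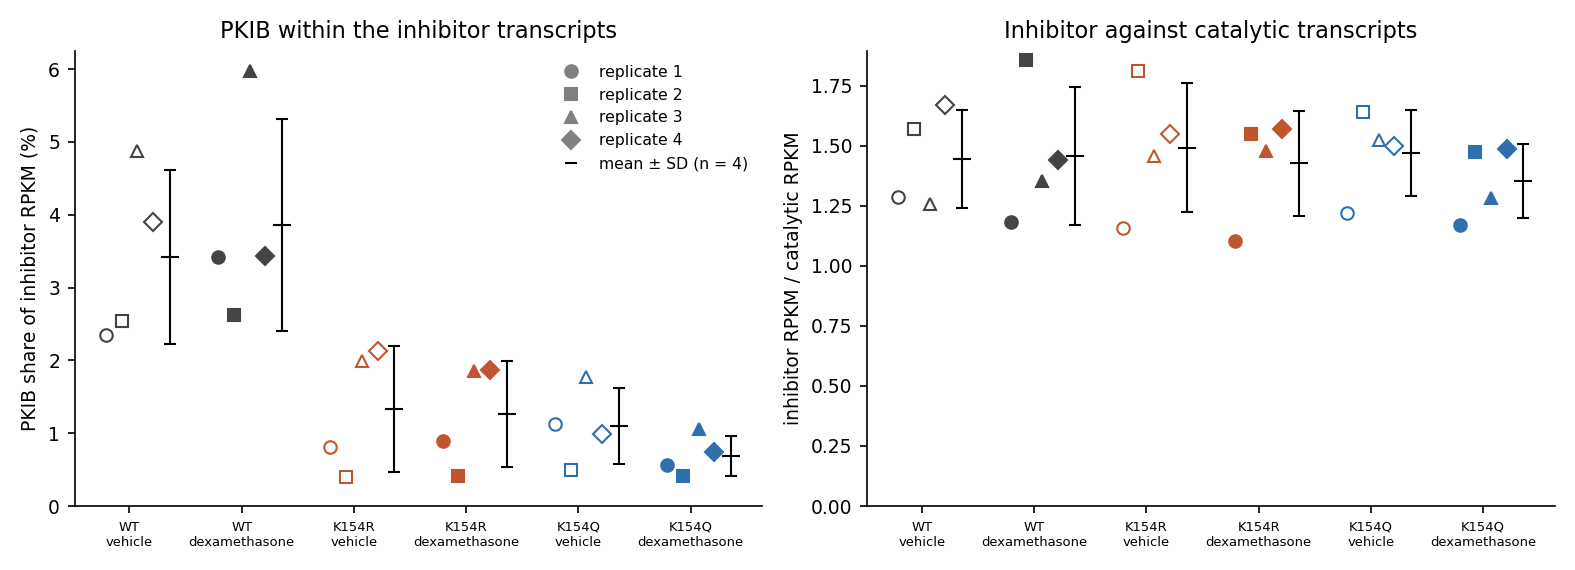
Left, share of PKIB in the summed RPKM of PKIA, PKIB and PKIG (percent); right, summed inhibitor RPKM divided by summed RPKM of PRKACA and PRKACB. Points are libraries, symbols replicate numbers and black bars the mean and SD of 4; the share is at 2.13% or below in the variant libraries and at 2.35% or above in WT, while the ratio lies between 1.10 and 1.86 throughout.

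The wider pathway was read from 7 lists with 79 distinct genes, of which 54 were tested. In the comparisons of K154R and K154Q with WT, 0 of 54 were called at either treatment, as were 0% of all 16196 genes, so this count does not set the lists apart. Of the 3 other subunit genes 1 was tested, PRKAR1B, at 58.9 CPM on average, with a log2 difference from WT between -0.02 and 0.07. Medians of all listed genes were -0.04 and 0.01 for K154R and -0.02 and 0.03 for K154Q, vehicle first, beside medians over all genes of -0.01 to 0.01.

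In the dexamethasone responses 1 of the 54 listed genes was called in WT and in K154R and 0 in K154Q. The shares over all 16196 genes were 0.161%, 0.309% and 0.13%, and the counts of 0 in single lists below are near these shares. The gene called, PPP1R1B, passed the filter on low counts only through dexamethasone libraries. PPP1R1B encodes an inhibitor of protein phosphatase 1 that becomes active when protein kinase A phosphorylates it. PPP1R1B was counted 1, 2, 0 and 0 times in the WT vehicle libraries and 13, 11, 11 and 9 times under dexamethasone. In K154R it had 1, 0, 0 and 0 counts under vehicle and 4, 8, 6 and 15 under dexamethasone. The groups did not overlap in either form, at levels of at most 0.472 CPM.

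From these counts the ratio of dexamethasone to vehicle was 16.3 in WT (95% counting interval 5.22 to 82.0) and 36.5 in K154R (6.11 to 1484). The filter asks for 0.318 CPM, which 5 dexamethasone libraries and 0 vehicle libraries reached. The test of PPP1R1B therefore favours a difference, and its adjusted p is not given. As a description, the fitted log2 changes were 3.81 (SE 0.69) in WT and 4.61 (SE 0.86) in K154R. In K154Q the counts went from 0, 1, 1 and 3 to 2, 16, 6 and 11, a ratio of 6.31 (2.46 to 20.6). The fitted change there was 2.52 (SE 0.66). The responses of PPP1R1B were not shown to differ between receptor forms, with 0 listed genes called for either difference of responses. Leaving out 1 library ended the call in 2 of 8 cases for WT and in 3 of 8 for K154R. The same filter stood behind those fits, so the cases that kept the call lend it no support.

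Among the 15 genes for adenylyl cyclases and G alpha subunits, 10 were tested and 0 called. GNAS, the stimulatory G protein subunit, averaged 741.4 CPM and ADCY9, an adenylyl cyclase, 142.3 CPM, and their responses lay between -0.08 and 0.12 on the log2 scale in the 3 forms. GNAI1, a G protein subunit that restrains adenylyl cyclase, went from 16.7 ± 1.12 to 22.5 ± 3.11 CPM in K154R and from 16.9 ± 1.5 to 20.9 ± 2.81 CPM in K154Q (SD, n = 4). Its log2 responses of 0.44 and 0.31 were not called by edgeR (adjusted p = 0.151 and 1.0). With the replicate number as a block, for which these contrasts qualify, edgeR called both (adjusted p = 5.13e-05 and 0.00417), where 1.23% and 0.722% of all genes were called. DESeq2 called the K154R response (adjusted p = 0.0428) and not the K154Q response (adjusted p = 0.952). GNAI1 was higher under dexamethasone in 4 of 4 same-number pairs in WT, K154R and K154Q alike. In WT, where 3 of 4 same-number pairs correlated above 0.1, its response was 0.29 (SE 0.11). The unblocked fit and DESeq2 did not call it there. The blocked fit did (edgeR adjusted p = 0.00938), with 128 of all 16196 genes called.

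Of 21 anchoring proteins 16 were tested and 0 called. AKAP1, which ties the kinase to mitochondria, averaged 317 CPM, and ARFGEF2, an exchange factor that also binds regulatory subunits, 191 CPM. Their responses lay between -0.04 and 0.09 on the log2 scale. PALM2AKAP2, a fusion locus that holds AKAP2, had responses of 0.40 (SE 0.11) in K154R and 0.30 (SE 0.11) in K154Q that were not called by edgeR (adjusted p = 0.184 and 1.0). With the block they were called (adjusted p = 5.94e-04 and 0.0174). DESeq2 called neither (adjusted p = 0.0595 and 0.882). In WT its response was 0.24 (SE 0.11).

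Phosphodiesterases degrading cyclic AMP had 9 of 16 genes tested and 0 called. PDE3B and PDE8A, at 67.6 and 50.1 CPM the most abundant ones tested, had responses between -0.03 and 0.12 on the log2 scale. All 8 genes of the CREB family and its coactivators were tested and 0 were called. EP300 and CREBBP, the histone acetyltransferases that CREB recruits, had responses between -0.08 and 0.16. The median response of the 8 was -0.08 for WT, -0.05 for K154R and 0.01 for K154Q, beside -0.01, -0.01 and -0.002 over all genes.

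CREB target genes numbered 12, of which 10 were tested and 0 called by the unblocked fit. PPARGC1A, the coactivator that drives gluconeogenic genes, responded by 0.10, 0.11 and 0.13 on the log2 scale in WT, K154R and K154Q. PER1, a clock gene that CREB and the glucocorticoid receptor both regulate, went from 9.92 ± 1.56 to 14.9 ± 1.73 CPM in K154R and from 9.77 ± 1.63 to 14.2 ± 1.18 CPM in K154Q (SD, n = 4), without overlap in either. Its responses were 0.59 (SE 0.15) and 0.54 (SE 0.15). They missed the threshold in edgeR (adjusted p = 0.13 and 0.328) and passed it with the block (5.32e-04 and 0.00208). DESeq2 called the K154R response (adjusted p = 0.0372) and not the K154Q response (adjusted p = 0.136). In WT the PER1 response was 0.39 (SE 0.15, edgeR adjusted p = 1.0). GNAI1, PALM2AKAP2 and, for its blocked values, PER1 were picked out after their values were seen. Over the 10 tested targets the median response was 0.07 for WT, 0.22 for K154R and 0.11 for K154Q, beside the same medians over all genes as above.

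**Figure D5:**
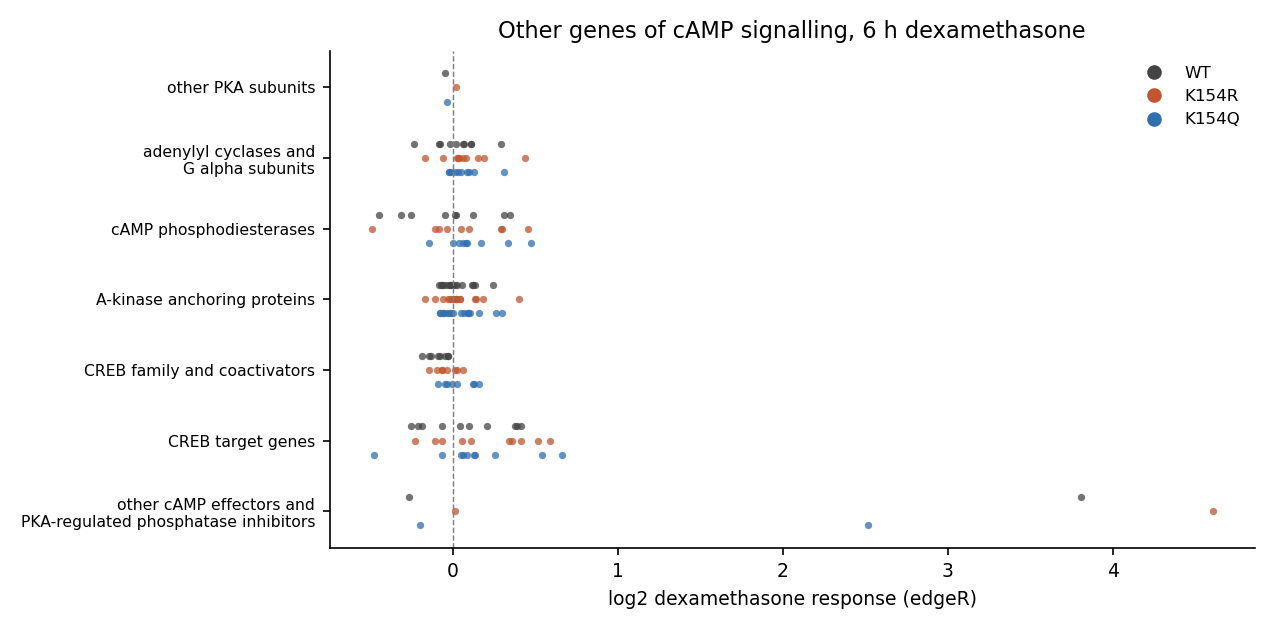
Fitted log2 response to 6 h of dexamethasone (horizontal axis) of each tested gene in 7 lists of cyclic AMP signalling, coloured by receptor form. The points at 3.81, 4.61 and 2.52 are PPP1R1B, which had very few counts under vehicle; the other points lie between -0.49 and 0.66.

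Over the 24 libraries the genes whose log2 CPM followed PKIB most closely were ENPP2 (r = 0.785), CCL16 (0.755), UBA6-DT (0.735), CTNND1 (0.708) and MYO15B (0.67), out of 12072 genes with at least 1 CPM on average. ENPP2 encodes autotaxin and CCL16 is a liver chemokine. Mean CCL16 in the 6 groups was 3.14 and 3.09 CPM in WT, 2.45 and 2.28 in K154R, and 2.05 and 1.89 in K154Q, vehicle first, the order seen for PKIB. The genes running most opposite were LRFN1 (r = -0.738), NAT8L (-0.703) and TTYH1 (-0.653). These correlations describe points that share groups and replicate numbers, and carry no test. The other tested kinase genes had an r with PKIB between -0.425, for PRKAR2A, and 0.218, for PRKAR1A.

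Genes beside PKIB on chromosome 6 had ranges that overlapped between each variant and WT. SERINC1, which starts next to the first PKIB start, had 181 to 214 CPM in the group means, and its log2 differences from WT lay between -0.17 and 0.06. HSF2, a heat shock factor, averaged 22.7 to 24.8 CPM and differed from WT by -0.02 to 0.04. SMPDL3A, a phosphodiesterase-like enzyme downstream of PKIB, differed by -0.17 to 0.08, and FABP7 had a count of 0 in all libraries. For these genes edgeR called 0 differences from WT, as for 0% of all genes.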

How the data were processed

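Poly(A) RNA of 24 HepG2 cultures was sequenced from directional libraries made with 300 ng of RNA of integrity number 8.6 or more, per the labels. The authors deposited raw counts per gene, not normalized, with a length per gene. Per the submitters' processing notes, bcl2fastq 2.20.0.422, cutadapt 3.7, STAR 2.7.6a and featureCounts 2.0.3 were used with GRCh38.p13. Strand setting, handling of multi-mapping reads and annotation: not given in the sources used here. Counts of PKIG, PRKAR1A, PRKAR2A, PKIA and PRKAR2B, which overlap ADA, FAM20A, PRKAR2A-AS1, PKIA-AS1 and AC006387.1 on the other strand, are therefore uncertain. The same holds for PKIB, which overlaps the pseudogene Z99129.2 on the other strand and AL512283.1 and Z99129.3 on its own. On their own strands PRKACB overlaps the pseudogene AL359504.1 and PRKAR1A overlaps AC007780.1.

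Groups followed the titles. Counts were fitted with edgeR 4.0.16 (R 4.3.3): filterByExpr kept 16196 of 60683 genes, TMM set the scaling, and all libraries entered 1 quasi-likelihood fit of the 6 group means, unblocked. Calls needed a Benjamini-Hochberg adjusted p under 0.05 over all genes tested. CPM and RPKM use TMM-scaled totals and the deposited lengths. SE is the absolute log2 difference divided by the root of F. Likeness used log2 CPM with a prior count of 2. Scripts were tested on simulated data. Replicates of a group always differed beyond sampling noise (chi-square per degree of freedom of at least 12.5). The counting intervals are exact 95% binomial ones and cover counting error only.

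Genes, lists and tests were chosen with earlier results of these data known. Named were the 8 genes, each list member called in any contrast and otherwise the 2 most abundant ones tested per list, and the 5 genes most and 3 least like PKIB. Replicate numbers were taken to pair libraries where all same-number pairs correlated above 0.1 in their deviations from group means: the K154R response (lowest r 0.264), the K154Q response (0.381), K154R and K154Q against WT under vehicle (0.31 and 0.306) and K154Q against K154R (0.265 and 0.183). The WT response fell short, with 3 of 4 pairs above 0.1 (lowest r 0.0504, median 0.402). Over all groups 23 of 24 libraries were closest to libraries of their own number. The median r was 0.347 for the same number and -0.126 for different numbers. Tried beside the unblocked fit were DESeq2 1.42.0, RLE scaling, no filter, a replicate block, only the libraries compared, and leaving out each library.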

Additional observations from a re-analysis of the deposited data

Results flagged for a closer look

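In groups of 4 libraries, 138 sets of values were examined for 1 library standing far from the other 3, and 4 were picked out, fewer than the 1 in 20 that chance gives. AKAP1 was 283 CPM in WT vehicle replicate 4, against 330 to 333 CPM in the other 3 libraries. ARFGEF2 was 229 CPM in K154R vehicle replicate 1, against 163 to 172 CPM. In the same library CREBBP was 87.8 CPM, against 53.2 to 55.7 CPM. PPP1R1B was 0.0236 CPM there, from 1 count, against 0 in the other 3.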

How the results depend on the processing

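Leaving PKIB out of the 4 contrasts it was chosen on, the count of protein kinase A genes called stayed at 0 in all 11 contrasts under RLE size factors, no filter, DESeq2, the replicate block, only the libraries compared and each library left out. The PKIB differences from WT stayed negative in all of these, which is a description and no support, since PKIB was chosen on them. Without 1 library they ranged from -1.87 to -1.15 (K154R, vehicle), -1.86 to -1.19 (K154R, dexamethasone), -2.01 to -1.47 (K154Q, vehicle) and -2.63 to -2.24 (K154Q, dexamethasone). PKIB responses near 0 changed sign, and the cause was not tested. In WT the response was 0.045 with the replicate block, 0.00048 with DESeq2 and -0.202 to 0.247 without 1 library. Without 1 library it was -0.425 to 0.375 in K154R, its difference between K154R and WT -0.41 to 0.391, and K154Q minus K154R under vehicle -0.59 to 0.137, positive without K154R replicate 4. The counts of all genes called moved more: the responses in WT, K154R and K154Q gave 26, 50 and 21, against 78, 109 and 72 without the filter, 128, 200 and 117 with the replicate block, 55, 77 and 47 with DESeq2 and 22, 26 and 16 with only the libraries compared. The 4 contrasts with WT and the 2 between variants gave 0, against 15, 8, 14, 18, 12 and 19 without the filter and 4, 2, 4, 5, 2 and 2 with the block. DESeq2 gave 1 gene for K154Q against WT under dexamethasone. These counts cover PKIB too, which was chosen on its differences from WT, so whether it is called there is not used. Without 1 library the response counts were 18 to 29, 23 to 61 and 15 to 25; the 50 of K154R became 31 and 28 without vehicle replicates 2 and 3, and 33 and 23 without dexamethasone replicates 2 and 4. In WT, where not all same-number pairs met the criterion for pairing, the block also called GNAI1. Of the 5 genes most like PKIB, 4 stayed with Spearman's rho and 3 at a mean of at least 5 CPM. Depth limits PKIB, at 6 to 97 counts a library.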
